A study of Neogale vison with 6 samples.

Results

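The genes described here encode ATP-binding cassette (ABC) transporters, other than the targets of liver X receptors (LXR). They were taken as every gene of the count table whose symbol consists of ABC, a subfamily letter from A to G and a number, leaving out ABCA1, ABCG1, ABCG5 and ABCG8. This gave 36 of the 24526 genes in the table, with 6 in subfamily A, 9 in B, 11 in C, 4 in D, 1 in E, 3 in F and 2 in G. Members of the family that carry other symbols, such as TAP1, fall outside this rule.

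ABC transporters use the energy of ATP to move lipids, peptides, drugs, metal complexes and conjugated metabolites across membranes. Full transporters hold a pair of membrane parts and a pair of ATP-binding cassettes in one chain, while half-transporters hold one of each and work as dimers. Subfamilies A and G mainly move lipids and drugs, B and C hold the multidrug pumps together with transporters of mitochondria and lysosomes, and D serves peroxisomes and cobalamin export from lysosomes. The proteins of E and F have ATP-binding cassettes but no membrane part, and they act in translation. Because several of these proteins carry sterols, phospholipids or statins, their expression under a lowered cholesterol level is of interest.

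Mv1Lu is a cell line from mink (Neogale vison) lung, and the RNA of untreated cells (control) was compared with that of cells subjected to cholesterol depletion (CD). For CD, the cells were kept for 16 h with 50 μM lovastatin, a statin that inhibits HMG-CoA reductase, and 50 μM mevalonate, in medium with 10% lipoprotein-deficient serum (LPDS). The labels do not state the serum given to the control cells, so that statin, mevalonate and serum cannot be told apart. Each group had 3 libraries, and nothing in the labels says that these came from separate cultures, so p-values measure the spread between the libraries, which may be technical. Between 13473820 and 18633764 reads per library were counted on genes. Levels are given as CPM, the read counts of a gene relative to all gene counts of its library after TMM scaling. A gene was called higher or lower where the quasi-likelihood test of edgeR, run over the 12148 genes with enough counts, gave a false discovery rate (FDR) below 0.05. The SE given with a log2 fold change is its standard error. CPM values are not corrected for gene length, so they were compared between libraries and not between genes.

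The markers of cell types were measured in the same libraries. Of the 7 epithelial markers found, 4 were tested. KRT19 fell from 936 ± 66.9 to 458 ± 77.1 CPM and CLDN4 rose from 0.603 ± 0.231 to 7.03 ± 1.11 CPM (SD, n = 3). TJP1 and ESRP1 were not called with all libraries. Of the 4 tested, 2 were called higher with the replicate block, without control replicate 1 or without CD replicate 3. Leaving out CD replicate 1 gave 2 called lower. EPCAM, CDH1 and CLDN7 had at most 6 counts in any library. The epithelial sum, mostly KRT19, ran from 1083 to 1208 CPM in the control and from 578 to 665 CPM in the CD libraries. The 9 markers of surfactant-producing alveolar type II cells summed to 265 to 311 CPM and to 388 to 458 CPM, mostly from LPCAT1, with SFTPB and SFTPC at 0 counts in every library and SFTPD at 3 or fewer. Of the 6 fibroblast markers, COL1A1, COL1A2, COL3A1 and PDGFRB were lower in CD, though COL1A2 was not called by total counts, with the replicate block or without any one of the control replicates or CD replicate 2. These made up nearly all of the sum, which was 306 to 384 CPM in the control and 181 to 229 CPM in the CD libraries. LUM, at 0.146 CPM in the control and 0.759 CPM in CD on average, and DCN, at 0.0608 and 0.328 CPM, were too low to be tested with all libraries, and LUM was called higher in the settings that tested it. The 4 endothelial markers summed to at most 0.22 CPM in control and at most 1.96 CPM in CD libraries, mostly from VWF, which was called higher (log2 fold change 3.38, FDR 8.82e-04, edgeR). Of the 5 leukocyte markers, CD68 (log2 fold change 1.85, FDR 2.5e-05, edgeR) and CD14 (2.37, FDR 0.00141, edgeR) were higher in CD, and the sum went from at most 5.84 to at most 23.3 CPM. LYZ had 0 counts and PTPRC 1 count in a single library. The part of these marker levels in the results below was not tested, and in bulk RNA fewer cells of a type and less RNA per cell cannot be told apart. CD replicate 3 stood apart from the other CD libraries for many of the transporter genes.

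Of the 36 genes, 23 had enough counts to be tested and 13 did not. In CD, 4 of the tested genes were higher (ABCA3, ABCA5, ABCC5 and ABCG2) and 10 were lower (among them ABCA2, ABCA4, ABCB6, ABCB8, ABCC10, ABCD4, ABCF1, ABCF2 and ABCF3), while 9 were not called. Over all tested genes of the table, 47.7% were called, 24.8% as higher and 22.9% as lower. The shares of the transporter genes were 60.9% called, 17.4% higher and 43.5% lower. The median log2 fold change of the 23 genes was -0.36, beside 0.057 for all tested genes, and 6 of the 23 had a log2 fold change above 0. For 17 of the 23 genes (73.9%) the CD libraries all lay on one side of the control libraries, 12 of them below and 5 above, compared with 58.0% over all tested genes. Changes of at least 2-fold were called for 3 genes, ABCC5, ABCB8 and ABCA4. Of the 14 called genes, 9 (2 higher and 7 lower) were called under every alternative setting in which they were tested. Without CD replicate 3, 7 of 24 tested genes were higher (29.2%) and 12 lower, beside 29.3% higher and 29.2% lower over all genes in the same test. The other genes called higher in that test were ABCA12, ABCB10 and ABCD2, the last of which passed the filter on low counts only in some settings.

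**Figure D1:**
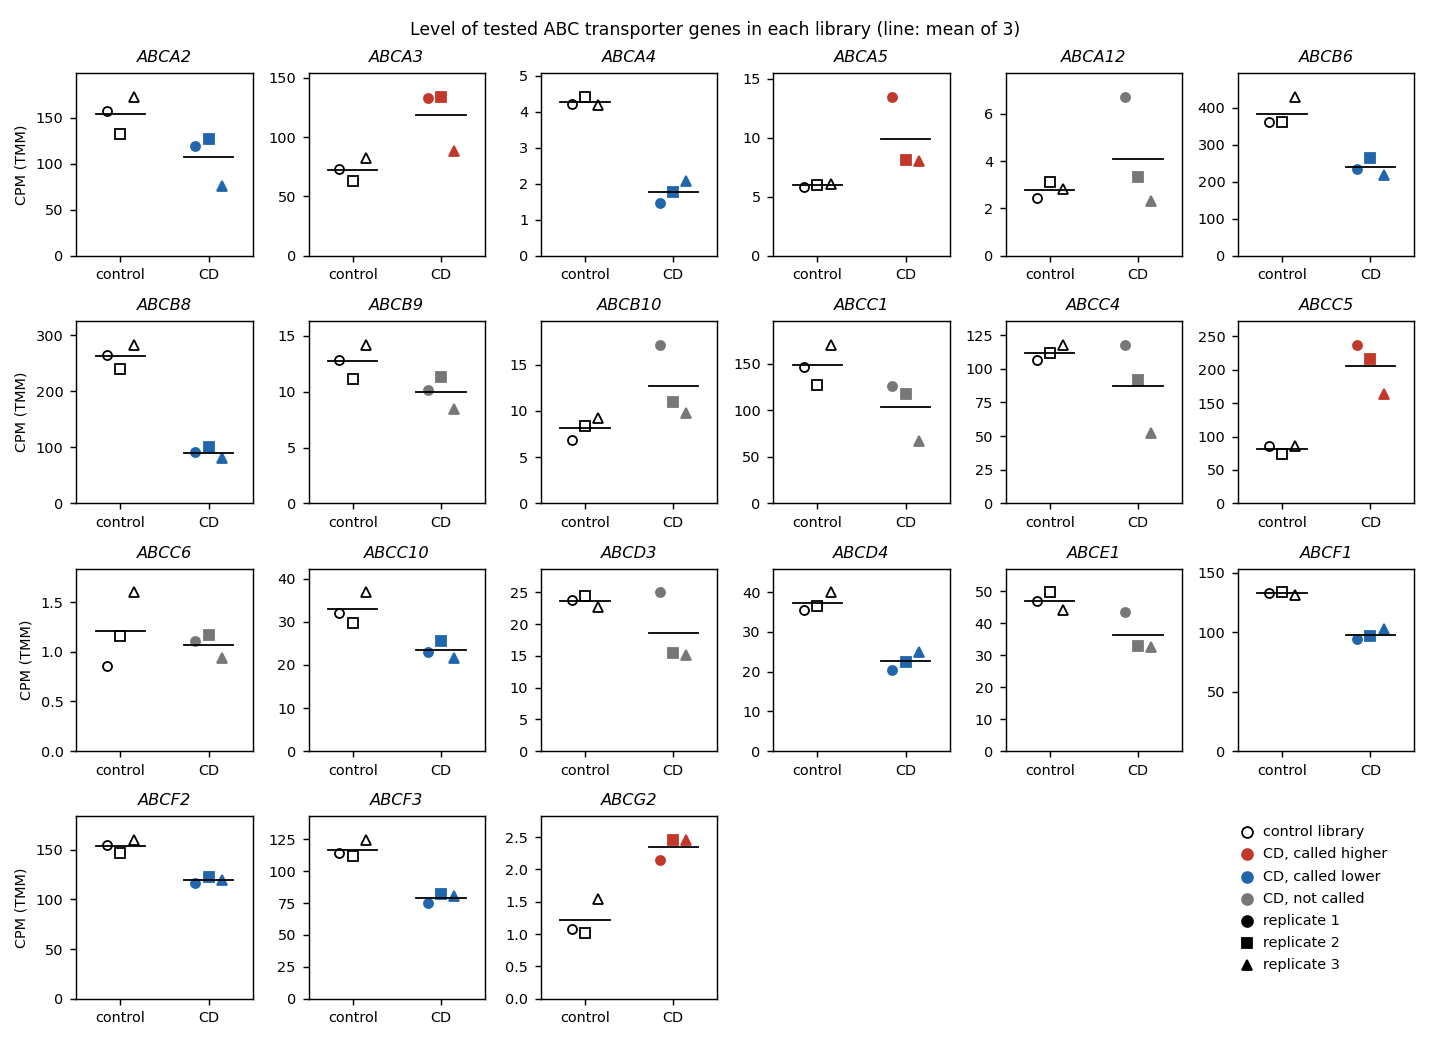
Level of tested ABC transporter genes in CPM after TMM scaling, 1 panel per gene with a linear axis from 0. Open symbols are control and filled symbols CD libraries, the shape gives the replicate number, and the line is the mean of 3 libraries. For ABCC5 the CD libraries at 164 to 237 CPM all lie above the control libraries, and for ABCB8 those at 80.9 to 100.1 CPM all lie below.

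**Figure D2:**
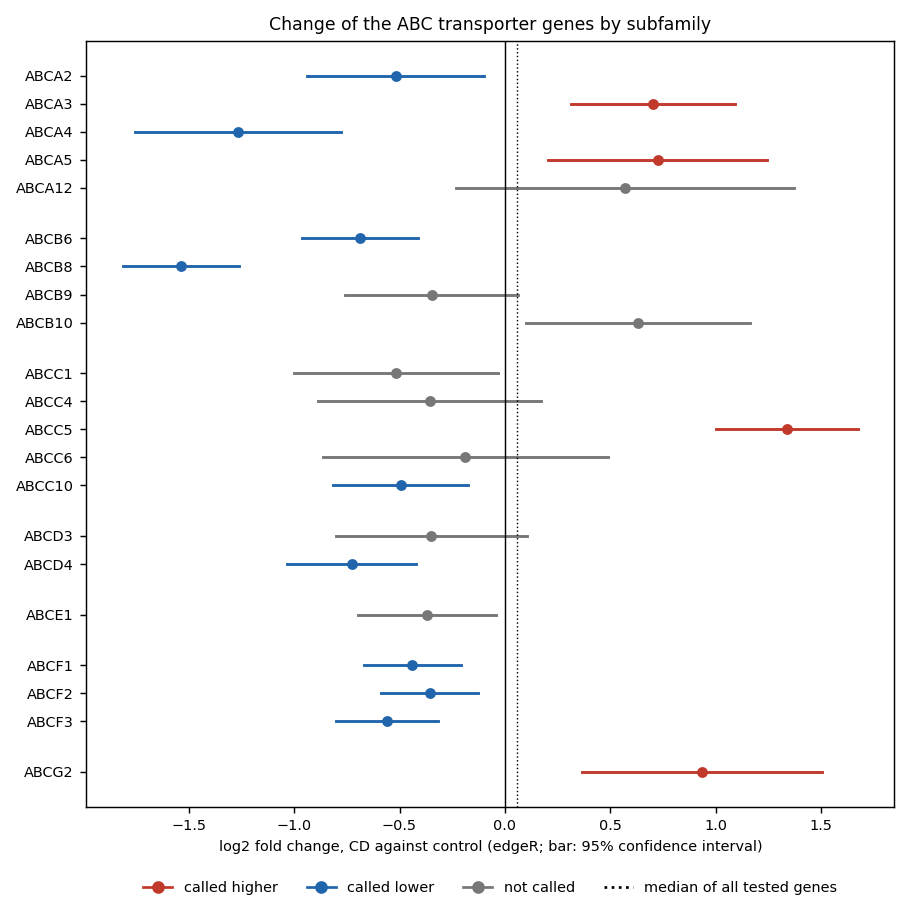
Log2 fold change of CD against control for tested genes, ordered by subfamily, with the 95% confidence interval of the edgeR fit. Red marks genes called higher, blue genes called lower and grey genes not called, and the dotted line at 0.057 is the median of all tested genes. The 3 genes of subfamily F lie to the left of 0, and the genes of subfamilies A, B and C lie on both sides.

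Subfamily A consists of large full transporters of lipids. Of its 6 genes 5 were tested, of which 2 were higher, 2 lower and 1 not called. ABCA3, which loads phospholipids into the lamellar bodies of surfactant-producing cells, stood at 72.9, 63.2 and 82.0 CPM in control replicates 1, 2 and 3 and at 133, 134 and 88.1 CPM in CD replicates 1, 2 and 3. All 3 CD libraries lay above the control libraries, with CD replicate 3 close to the highest of them. Its log2 fold change was 0.70 (SE 0.17, FDR 0.00802, edgeR), and it was called with each library left out in turn, at values between 0.57 and 0.84. ABCA5, a transporter of late endosomes and lysosomes, had 5.88, 6.0 and 6.06 CPM in the control and 13.5, 8.16 and 8.0 CPM in the CD libraries. The increase in CD replicate 1 was thus larger than in the others. Its log2 fold change of 0.72 (SE 0.23, FDR 0.0266, edgeR) became 0.45 without CD replicate 1, and the call was lost there (FDR 0.0609) and without any one of the control replicates. It was called without CD replicate 2 or 3.

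ABCA4, which in the retina moves a retinoid-phospholipid conjugate, fell from 4.23, 4.41 and 4.19 CPM to 1.47, 1.78 and 2.09 CPM. The groups did not overlap, and the log2 fold change, -1.26 (edgeR, SE 0.22, FDR 0.00102), was called under all 14 alternative settings. ABCA2, a transporter of lysosomes and endosomes that has been linked to sterol and sphingolipid handling, was at 157, 132 and 172 CPM in the control and at 119, 126 and 76.1 CPM in the CD libraries. CD replicate 3 was by far the lowest. The log2 fold change was -0.52 (edgeR, SE 0.19, FDR 0.0434) and, without that library, -0.36, where it was still called. The gene was not called in 4 of 14 settings, which were scaling by upper quartile or total counts and leaving out control replicate 1 or 3. ABCA12, known as the lipid transporter of the skin barrier, had 2.44, 3.11 and 2.81 CPM in the control and 6.70, 3.31 and 2.31 CPM in the CD libraries. Its groups overlapped, with CD replicate 1 high and CD replicate 3 lowest of all 6 libraries. The log2 fold change was 0.57 with a 95% confidence interval of -0.23 to 1.37 (FDR 0.217, edgeR), and it lay between 0.03 without CD replicate 1 and 0.81 without CD replicate 3, the one setting of 14 that called it. ABCA9 had 2 to 4 counts in each library and was not tested.

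In subfamily B, the genes with enough counts were those of the half-transporters of mitochondria and lysosomes. Of the 9 genes 5 were tested, and 2 were called, both as lower. ABCB8, a transporter of the inner mitochondrial membrane that has been linked to iron export, had the largest decrease of the 23 genes. It was at 264, 241 and 283 CPM in the control and at 91.0, 100.1 and 80.9 CPM in the CD libraries. Every CD library thus lay below 0.5 of every control library. The log2 fold change was -1.53 (SE 0.12, FDR 8.03e-06, edgeR), and with each library left out it stayed between -1.64 and -1.48. ABCB6, a porphyrin transporter that carries the Langereis blood group antigen, fell from 363, 362 and 429 CPM to 235, 264 and 217 CPM. The groups were well separated, and the log2 fold change was -0.69 (SE 0.12, FDR 0.00129, edgeR), with a range of -0.80 to -0.60 over the libraries left out. Both genes were called under all 14 alternative settings.

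ABCB10, an inner-membrane transporter needed for heme synthesis in red cell precursors, had 6.88, 8.38 and 9.20 CPM in the control and 17.1, 11 and 9.80 CPM in the CD libraries. All CD libraries were above the control libraries, the third by little. With a log2 fold change of 0.63 (95% confidence interval 0.10 to 1.16, FDR 0.0512, edgeR) it just missed the threshold, and 6 of 14 settings called it, among them DESeq2 and the test without CD replicate 3. ABCB9, a peptide transporter of lysosomes, overlapped between the groups, at 12.7 ± 1.54 and 9.99 ± 1.47 CPM (SD, n = 3), with a 95% confidence interval of the log2 fold change of -0.76 to 0.06, and was called by no setting. TAP1, the related peptide transporter of the endoplasmic reticulum that the symbol rule leaves out, changed by -0.25 on the log2 scale (FDR 0.0977, edgeR) and was not called, though its groups did not overlap and it was called lower without CD replicate 3. Of 7 partners of TAP in peptide loading, all tested, 2 were higher and 2 lower (1 and 3 without CD replicate 3). They were TAPBPL, an editor of bound peptides (log2 fold change 0.81, FDR 6.18e-04, edgeR), and B2M, the light chain of class I molecules (0.46, FDR 0.0472, edgeR), as the higher ones, and the trimming peptidase ERAP1 (-0.97, FDR 8.04e-04, edgeR) and the chaperone CALR (-0.55, FDR 0.00752, edgeR) as the lower ones. B2M was at 211, 190 and 304 CPM in the CD libraries, and its call was lost without CD replicate 3 (log2 fold change 0.20), without any one of the control replicates, by limma-voom and with the size factors of DESeq2.

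Heme and iron-sulfur genes around these mitochondrial transporters were taken as a list of 19, of which 14 were in the table by symbol and tested. In CD 4 were higher and 5 lower, and their median log2 fold change was -0.18. Without CD replicate 3 the numbers were also 4 and 5, while without control replicate 3 they were 3 and 2. The higher genes included ISCU, the scaffold of iron-sulfur assembly (log2 fold change 1.46, FDR 2.00e-05, edgeR), and FECH, which inserts iron into heme (1.26, FDR 2.02e-04, edgeR). The lower genes included ALAD, an early enzyme of heme synthesis (-1.37, FDR 9.30e-05, edgeR). The list thus held called changes in both directions.

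Subfamily C holds the multidrug resistance proteins, which export glutathione, glucuronide and sulfate conjugates, cyclic nucleotides and drugs. Of its 11 genes 5 were tested, with 1 higher, 1 lower and 3 not called. ABCC5, an exporter of cyclic nucleotides and nucleotide analogs, had the largest increase of the 23 genes. It stood at 85.3, 73.4 and 85.7 CPM in the control and at 237, 216 and 164 CPM in the CD libraries, so that the lowest CD library was far above the highest control library. The log2 fold change was 1.34 (SE 0.15, FDR 6.99e-05, edgeR), or 2.53-fold, and stayed between 1.23 and 1.44 with each library left out. It was called under all 14 alternative settings.

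ABCC10, a broad drug pump, fell from 32.1, 29.8 and 36.9 CPM to 23.1, 25.5 and 21.5 CPM. The groups did not overlap, and the log2 fold change was -0.49 (SE 0.14, FDR 0.0171, edgeR). It was not called without control replicate 1 or 3, where the FDR reached 0.0921. ABCC1, the founding multidrug resistance protein, was at 147, 128 and 171 CPM in the control and at 126, 118 and 66.8 CPM in the CD libraries. CD replicates 1 and 2 lay just under the lowest control library and CD replicate 3 far under it. The log2 fold change of -0.52 (95% confidence interval -1.0 to -0.03, FDR 0.075, edgeR) was not called, and it was -0.32 without CD replicate 3 (FDR 0.0147, edgeR) and -0.67 without CD replicate 1 (FDR 0.0257, edgeR), and was called in both cases. DESeq2 and the fit with the replicate number as a block also called it. ABCC4, which exports cyclic nucleotides and prostaglandins, had the largest coefficient of variation in CD among the 5 tested genes of the subfamily, with 107, 112 and 117 CPM in the control and 118, 91.6 and 52.3 CPM in the CD libraries. CD replicate 1 lay above the control libraries and CD replicate 3 at less than 0.5 of them. Its log2 fold change moved from -0.36 (FDR 0.24, edgeR) to -0.13 without CD replicate 3 and to -0.63 without CD replicate 1, where alone it was called. ABCC6 had 12 to 29 counts per library and overlapping groups, and its log2 fold change of -0.19 (95% confidence interval -0.86 to 0.49) changed sign, to 0.088, without control replicate 3.

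Enzymes that make the substrates of these pumps, in drug metabolism and glutathione conjugation, were taken as a list of 19, of which 13 were in the table and 10 were tested. In CD 1 was higher and 3 were lower, and their median log2 fold change was -0.12. MGST3, a microsomal glutathione transferase, was the one called higher (log2 fold change 1.52, FDR 6.00e-05, edgeR). The related MGST1 and MGST2 had too few counts for the test with all libraries. Their CD libraries all lay above the control, at means of 0.079 and 0.93 CPM for MGST1 and 0.30 and 0.83 CPM for MGST2 in control and CD. The lower ones included GCLC, the catalytic subunit of the first enzyme of glutathione synthesis (-0.77, FDR 0.00119, edgeR), and POR, the electron donor of cytochromes P450 (-0.38, FDR 0.0265, edgeR), the latter not called with the replicate block or without control replicate 3. Counts in this list moved with the libraries and the filter used. With all libraries and no filter on low counts, 3 of 13 tested genes were higher and 3 lower. Without CD replicate 3, 4 of 11 tested genes were higher and 5 lower, without CD replicate 2 there were 2 and 2, and without control replicate 1, 2 or 3 there were 3 higher of 12 tested, with 2, 3 and 1 lower.

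Subfamily D transports very long and branched chain acyl groups into peroxisomes, apart from ABCD4, which acts in the export of cobalamin from lysosomes. ABCD4 fell from 35.5, 36.6 and 39.9 CPM to 20.4, 22.3 and 25.0 CPM. The groups did not overlap, and the log2 fold change of -0.73 (SE 0.14, FDR 0.00174) was called by edgeR and under all 14 alternative settings. ABCD3, an abundant protein of the peroxisomal membrane, had 23.8, 24.5 and 22.6 CPM in the control and 25.0, 15.4 and 15.2 CPM in the CD libraries. CD replicate 1 was above the control libraries and the others were below. Its log2 fold change of -0.35 (95% confidence interval -0.80 to 0.11, FDR 0.183, edgeR) was -0.62 without CD replicate 1, the one setting of 14 that called it. ABCD2, a peroxisomal transporter of very long chain acyl groups, had 2, 6 and 6 counts in the control and 15, 11 and 4 counts in the CD libraries, too few for the test with all libraries.

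Peroxisomal partners of these transporters, mostly of fatty acid oxidation and of the import of membrane proteins, were taken as a list of 19, of which 17 were in the table and 15 were tested. Here 9 were higher and 1 was lower in CD, and the median log2 fold change was 0.47. They included ACBD5, an acyl-CoA binding protein of the peroxisomal membrane (log2 fold change 1.20, FDR 2.44e-04, edgeR), and ACAA1, the peroxisomal thiolase (1.05, FDR 2.08e-04, edgeR). The lower gene was SLC27A4, a fatty acid transport protein (-0.35, FDR 0.0362, edgeR), which was not called with the replicate block or without control replicate 1 or 3 or CD replicate 1. Without CD replicate 3, 10 were higher and 1 lower. With the replicate number as a block, or without control replicate 1, 5 were higher and 0 lower, and with any other single library left out 6 or more were higher. Most of the called partners thus rose. ABCD4, which fell, acts in lysosomes and not with these peroxisomal partners, and the difference between them was not tested.

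The proteins of subfamilies E and F have no transport function. ABCE1 recycles ribosomes after termination, ABCF1 acts in translation initiation, and ABCF2 and ABCF3 are its less studied relatives. All 4 genes were tested, and for each of them every CD library lay below every control library. Over all tested genes, the groups did not overlap for 58.0%, and 3471 of 12148 lay wholly below the control. ABCF1 was at 133, 134 and 132 CPM in the control and at 94.0, 96.6 and 103 CPM in the CD libraries. ABCF2 was at 154, 146 and 160 CPM against 116, 123 and 120 CPM, and ABCF3 at 114, 112 and 124 CPM against 75.0, 82.3 and 80.2 CPM. The libraries of a group were close together, with a median coefficient of variation over the 3 genes of 4.40% in control and 4.74% in CD cells, and CD replicate 3 was not the lowest CD library for any of them. The log2 fold changes were -0.44 (ABCF1), -0.36 (ABCF2) and -0.56 (ABCF3), with an FDR of 0.00573, 0.0161 and 0.00199 in edgeR. ABCF1 and ABCF3 were called under all 14 settings, and ABCF2 was not called with the replicate block (FDR 0.0651) or without control replicate 1 or 3. ABCE1 went from 47.0, 49.7 and 44.2 CPM to 43.6, 32.8 and 32.7 CPM, with CD replicate 1 close to the control. Its log2 fold change of -0.37 (95% confidence interval -0.70 to -0.04, FDR 0.0622, edgeR) was called in 4 of 14 settings. Of 11 tested partners in translation, 3 were higher and 1 was lower in CD, and the median was 0.21 on the log2 scale. Among them were EIF2AK4, the kinase GCN2 (log2 fold change 0.87, FDR 0.00305, edgeR), and, as the lower one, GSPT1, a termination factor (-0.45, FDR 0.00481, edgeR). Without CD replicate 3, 3 were higher and 3 lower.

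In subfamily G, the rule leaves ABCG2 and ABCG4. ABCG2, the breast cancer resistance protein, is a half-transporter that exports drugs, statins and urate. It had 15, 14 and 28 counts in the control and 35, 40 and 34 counts in those of CD. These correspond to 1.07, 1.01 and 1.54 CPM and 2.15, 2.45 and 2.45 CPM. The groups did not overlap, with control replicate 3 above the other control libraries. The log2 fold change was 0.93 (SE 0.25, FDR 0.0127, edgeR). It was not called by DESeq2 (FDR 0.0517) or without control replicate 1 or 2. The LXR targets that the rule leaves out include ABCG1, at 72.4 ± 8.16 CPM without and 8.15 ± 0.217 CPM with CD (SD, n = 3), and ABCA1, at 37.1 ± 2.09 and 16.7 ± 8.92 CPM. Their log2 fold changes were -3.15 and -1.15 (FDR 3.11e-07 and 0.0197, edgeR). ABCA1 stood at 24.4, 18.8 and 6.92 CPM in the CD libraries, and its log2 fold change was -0.82 without CD replicate 3, where it was called. It was not called without control replicate 2 or 3 or without the filter on low counts, whereas ABCG1 was called in all 14 settings. ABCG5 had 0 counts in every control library and 6, 2 and 4 counts in the CD libraries, too few for the test, and was called higher without the filter on low counts (FDR 0.00795, edgeR). ABCG8 had 1 count in 1 control library and 0 in the others. The decrease of ABCG1 exceeded that of any of the 23 genes described here, among which ABCB8 had the lowest log2 fold change at -1.53.

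Regulators known to act on drug transporter genes were listed as well. Of 18 such genes 17 were in the table and 14 were tested. In CD 8 of them were higher and 2 lower, and their median was 0.59 on the log2 scale. The highest were HNF4A, a nuclear receptor of epithelia (log2 fold change 1.3, FDR 0.00578, edgeR), and NR3C1, the glucocorticoid receptor (0.88, FDR 0.0212, edgeR). In the CD libraries HNF4A was at 10.6, 9.45 and 4.47 CPM, against at most 3.47 CPM in the control, and NR3C1 at 153, 97.9 and 61.1 CPM, against at most 60.8 CPM. CD replicate 3 was thus close to the control for both genes, and without it the log2 fold changes were 1.55 and 1.11. NR3C1 was not called without control replicate 2 or 3 or without the filter on low counts. The lower ones were KEAP1, the inhibitor of NRF2 (-0.70, FDR 4.21e-04, edgeR), and PPARG (-0.60, FDR 0.0186, edgeR), which was not called with the replicate block or without control replicate 2 or 3 or CD replicate 2. The xenobiotic receptor gene NR1I2 had 0 counts in all libraries, as had the bile acid receptor gene NR1H4. Without CD replicate 3, 9 were higher and 2 lower, without control replicate 2, 5 were higher and 1 lower, and without control replicate 3 or CD replicate 2, 6 were higher and 1 lower.

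**Figure D3:**
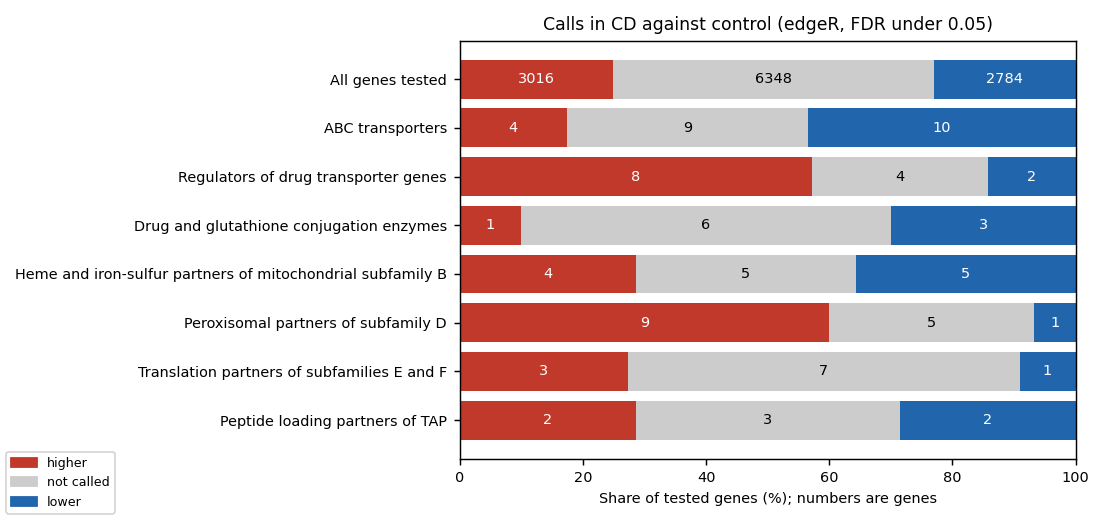
Share of tested genes that were called higher (red), not called (grey) or lower (blue) in CD, for all genes, the ABC transporters and 6 lists of partner genes, with the number of genes in each part of a bar. Of the 23 ABC transporter genes 10 were lower and 4 higher, and of the 15 peroxisomal partners 1 was lower and 9 were higher.

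The 13 genes that were not tested included several well-known pumps. ABCB1, the multidrug pump P-glycoprotein, had 0, 1 and 0 counts in the control and 0, 0 and 2 counts in the CD libraries. ABCC2 and ABCC3, multidrug resistance proteins of the bile canaliculus and the basolateral membrane, had at most 2 and 5 counts in any library, and the bile salt pump ABCB11 had at most 9. ABCC8 and ABCC9, the sulfonylurea receptors, had at most 9 and 1 counts, and KCNJ11, a channel subunit that pairs with them, had at most 7. The remaining ones were ABCA9, ABCB4, ABCB5, ABCC11, ABCC12, ABCD2 and ABCG4. Over the 13 genes no library held more than 15 counts, and the total over 6 libraries was at most 44 counts per gene. ABCB5 and ABCC9 had no counts in the control, which at a floor of 3 counts over the group allows up to 0.0648 CPM. Without the filter on low counts none of the 13 was called by edgeR, and without CD replicate 3 ABCD2 was called higher. According to the RefSeq annotation of assembly ASM_NN_V1, which is not the assembly of the counts, ABCB4 and ABCB1 are neighbors, as are ABCC11 and ABCC12, and ABCC1 and ABCC6. Both genes of the first pairs were below the filter, whereas ABCC1 and ABCC6 were tested and not called. Reads that mapped to several places made up 4.81% to 5.71% of each library and are listed apart from the genes in the count table.

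The spread between the CD libraries was not the same in all subfamilies. CD replicate 3 was the lowest CD library for 16 of the 23 genes (69.6%), compared with 41.0% of all tested genes. This held for 4 of 5 genes in subfamily A, 4 of 5 in B, 5 of 5 in C, 2 of 3 in D and 0 of 3 in F. The median log2 ratio of CD replicate 3 to the mean of the other CD libraries was -0.60 in subfamily A, -0.47 in C, -0.24 in B, -0.23 in D and 0.028 in F, beside -0.0090 over all tested genes. ABCA12, ABCC4, ABCC1 and ABCA2 were furthest below, at 0.46, 0.499, 0.547 and 0.62 times that mean. In this library 41.4% of the reads were assigned to no gene, compared with 31.1% and 31.8% in the other CD libraries and 29.3% to 47.2% in the control libraries. The part of this share in the lower values was not tested. In the control, the median coefficient of variation of the 23 genes was 9.54%, and in CD it was 14.7%, beside 8.80% and 17.0% over all tested genes.

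**Figure D4:**
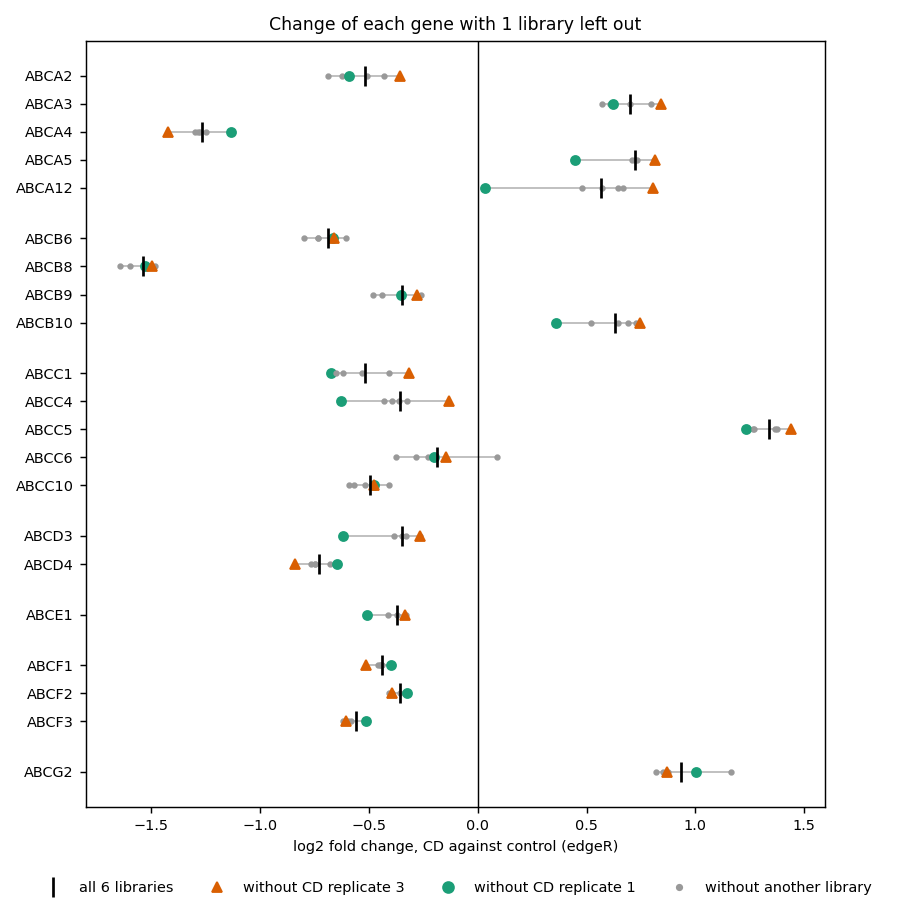
Log2 fold change of tested genes with all 6 libraries (black bar), without CD replicate 3 (orange triangle), without CD replicate 1 (green circle) and without any other library (grey points), by edgeR. The values of ABCB8 and ABCC5 stay between -1.64 and -1.48 and between 1.23 and 1.44, whereas those of ABCA12 run from 0.03 to 0.81 and those of ABCC4 from -0.63 to -0.13.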

How the data were processed

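Poly(A) RNA of 6 Mv1Lu samples was sequenced by the authors as 3 control and 3 CD libraries (Nextera XT), trimmed with fastp 0.20.1 and aligned with STAR 2.7.2a to mink assembly NNQGG.v01. The authors deposited raw counts per gene, without normalization. The counting program and its use of strand are not given in the sources used here, so counts of overlapping, antisense and highly similar genes are uncertain. In the count table, 4 rows give reads without a gene (29.3% to 47.2% of a library), and these were left out. The deposited files of normalized expression were not used here.

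Counts were compared with edgeR 4.0.16 in R 4.3.3 (filterByExpr with a minimum count of 10 and a minimum total of 15, TMM, robust glmQLFit, glmQLFTest, condition as the only term), with Benjamini-Hochberg adjustment over 12148 genes. Standard errors are the log2 fold change over the square root of F. The median standard error of the 23 genes was 0.17, which is the precision that the depth and 3 libraries per group give. An exact permutation test of 3 against 3 cannot go below 0.1 and was not used. The procedure was tested on simulated data, in which few genes changed and both groups had the same spread, unlike in these data.

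Members and lists were chosen with earlier results of these data known. The partner and marker lists were written from general knowledge and matched by symbol. Of each list at most the 2 highest and 2 lowest called genes are named with a fold change, and every member may be named, with full statistics for those changed at least 2-fold or whose call depends on the setting. Alternatives were DESeq2 1.42.0, limma-voom (limma 3.58.1), other scalings and filters, the replicate block, each library left out, an FDR of 0.01 and a test against a 1.5-fold change. The last 2 apply to counts of genes only, which leaves 14 settings for single genes. No sequences are printed. Some genes that enter the counts and medians are not reported here by name.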

Additional observations from a re-analysis of the deposited data

How the results depend on the processing

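The direction of the 23 log2 fold changes was kept in every one of the 14 settings in which a gene was tested, except for ABCC6 (-0.19 with all libraries, -0.38 to 0.088 with 1 left out, the highest without control replicate 3). Over the 23 genes and 14 settings, 16 values lost and 17 gained a call. The number of higher genes, 4 with all libraries, ranged from 2 to 7 with 1 library left out (2 without control replicate 1 or 2, 7 without CD replicate 3), and was 2 at an FDR of 0.01 and 1 against a 1.5-fold change. The number of lower genes, 10, ranged from 7 to 14 with 1 library left out and was 2 against a 1.5-fold change. These last thresholds are stricter by construction. Calls over all tested genes moved too. There, 2784 were lower with all libraries, 2194 to 3606 with 1 library left out and 1239 against a 1.5-fold change. The numbers of higher genes were 3016, 2216 to 3616 and 1303. Over the members tested in each setting, whose number varied, the median lay between -0.47 and -0.30. Of these members, 15 to 21 did not overlap between the groups. Over all tested genes, 58.0% did not overlap with all 6 libraries, and this share was not taken for the other settings. Leaving out a library makes such separation more frequent for any gene. Scaling moved the median of all tested genes by at most 0.032.

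The groups share replicate numbers. Deviations of same-numbered libraries from their group means had correlations of -0.024, -0.33 and -0.18 across genes. With 3 libraries per group, deviations from the mean are tied to one another, so these values cannot decide whether the numbers pair the libraries. With the replicate block 4 genes were higher and 10 lower, ABCC1 gained and ABCF2 lost its call, and over all genes 2772 were higher and 2636 lower.

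ABCG2 (57 control and 109 CD counts) and the 13 untested genes (at most 44 counts each) rest on few reads.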
